A study of Drosophila pseudoobscura with 4 samples.

Results

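Some microRNAs of *Drosophila pseudoobscura* have no counterpart in *D. melanogaster* and lie inside protein-coding genes, and 7 of these were followed here across the sexes. They are dps-mir-2555, dps-mir-2557, dps-mir-2568a, dps-mir-2569, dps-mir-2575, dps_2613 and dps_53, and they were taken by name from the 231 microRNAs of the count tables. The study annotates no *D. melanogaster* ortholog for any of them. Of the 231, 224 have an annotated position, and 84 of these have no ortholog and lie in the span of a protein-coding gene. Only 27 of these 84 had a read in any library, and 9 reached a mean of at least 1 read per library after scaling for depth (base mean). The 7 are among these 9, so that their detection follows from how they were chosen. The remaining ones, named after their values were seen, were dps_7 in Cul4 (base mean 153) and dps-mir-2519 in out (base mean 1.26). The lowest of the 7 was dps-mir-2555 (base mean 1.20), and the highest of those below 1 was dps_123 (base mean 0.985).

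Small RNA was sequenced from adult flies collected at 7 days, in 2 male and 2 female libraries, from 1 stock held at 18 °C and 12 h of light. The females were virgins, per the paper's discussion, and no treatment or genotype separated the sexes. Each of 2 MiSeq sequencing runs held 1 male and 1 female library, and the run was read from the replicate number, which no label states outright. The paper calls the 2 libraries of a sex biological replicates. Neither it nor the labels say whether they came from separate cultures, so that p-values measure the spread between these libraries only.

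A microRNA is cut from a hairpin precursor and guides Argonaute proteins to partly matching messenger RNAs, which are then repressed. A precursor inside a gene can be made from the transcript of that gene or from a promoter of its own. MicroRNA genes that arose recently are often weakly expressed, and many are lost again in evolution. The tables give reads per precursor, so that the arms of a hairpin are not told apart, and sequences and strands were not used here.

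The male libraries held 5697 and 67076 reads and the female libraries 7111 and 42754. Levels are given in CPM, or reads per 1000000 reads of these totals, with exact (Clopper-Pearson) 95% intervals. Each interval comes from a single library and covers counting error only. It may understate that error, because reads without molecular identifiers are not independent molecules. They are not scaled by precursor length, since a read is taken as a whole mature microRNA. A level of 3 reads, taken as the floor, was 527 and 44.7 CPM in the male libraries and 422 and 70.2 CPM in the female libraries. The sex labels were checked with dps-mir-318 and dps-mir-994, microRNAs of the *D. melanogaster* ovary. The reads of dps-mir-318 were 2 and 5 in male libraries, against 287 and 3102 in female libraries, and those of dps-mir-994 were 0 and 1, against 48 and 369. The most abundant microRNA, dps-mir-8, took from 25.4% to 31.2% of a library.

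The 7 precursors lie in 6 genes, on 4 chromosomes (assembly UCI_Dpse_MV25, with positions from the study's annotation and gene spans from RefSeq). For each of them a single annotated gene covers the position, and the gene table has no exons or strands, so that introns and exons were not told apart. On chromosome 2, dps-mir-2575 lies from 15251161 to 15251280, within the 43775 bases of LOC4801835. It is 535 bases from the lower-coordinate end of that gene and is the only one of the 7 this near to an end. Also on chromosome 2, dps-mir-2557 lies from 839581 to 839672 in Mgat2, which encodes a glycosyltransferase that branches N-glycans. On the XL arm of the X, dps_2613 lies from 17246568 to 17246683 in wcy, and it is the only one of the 7 on the X. On chromosome 3, dps_53 lies from 20719620 to 20719723 in Sln, whose *D. melanogaster* ortholog, Silnoon, is a transporter of monocarboxylates. On the same chromosome, dps-mir-2555 lies from 20109233 to 20109294 in SP2353.

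The remaining pair shares a gene. On chromosome 4, dps-mir-2568a lies from 16095981 to 16096068 and dps-mir-2569 from 16134724 to 16134814, both in LOC6902426, which spans 156446 bases. The pair is 38655 bases apart. A further precursor, dps-mir-2568b, starts 49 bases after dps-mir-2569 in the same gene. It had 0 reads in all 4 libraries, against 29 reads of dps-mir-2568a and 20 of dps-mir-2569 in total. Reads that suit both copies of mir-2568 could have been split or dropped by the counting. No other of the 224 microRNAs with a position lies within 10 kb of any of the 7.

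**Figure D1:**
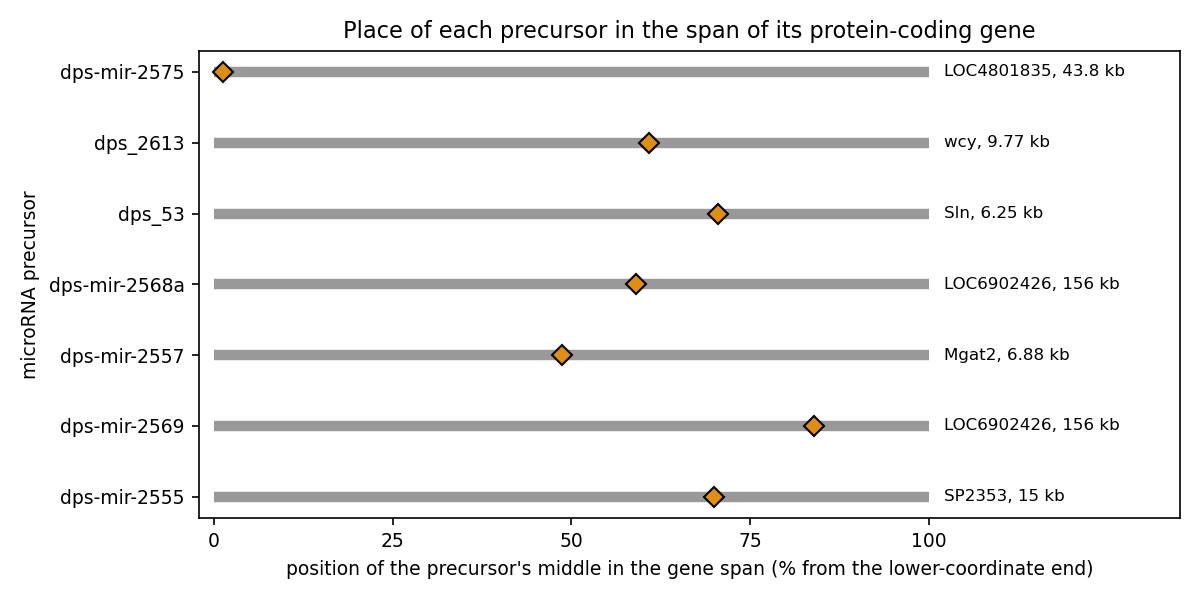
Position of each precursor in the span of its protein-coding gene, in percent of the span from the lower-coordinate end. Each grey bar is a gene drawn to the same width, with its symbol and length in kb beside it. The precursor of dps-mir-2575 sits at 1.36% of its gene, and the others between 48.7% and 83.8%.

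Together the 7 microRNAs made up a small share of every library, and dps-mir-2575 took most of their reads in the deeper run. Summed over the 7, the male libraries had 29 and 327 reads, or 0.509% (95% interval 0.341% to 0.730%) and 0.488% (0.436% to 0.543%) of the library. The female libraries had 26 and 145 reads, or 0.366% (0.239% to 0.535%) and 0.339% (0.286% to 0.399%). In each run the male share was the higher, by 1.39 times in run 1 (0.791 to 2.46) and 1.44 times in run 2 (1.179 to 1.76), where the intervals cover counting error between 2 libraries and not the spread of the sexes. This ratio rests on dps-mir-2575. Without it the sums gave 1.11 times (0.529 to 2.30) and 1.182 times (0.844 to 1.67), a setting chosen after seeing the data. Scaled by library totals too, the microRNAs tested below had a median male to female log2 fold change of 0.28. A ratio above 1 was therefore not particular to the 7. In whole flies, fewer cells that make a microRNA and less of it per cell cannot be told apart.

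Detection followed depth. In run 1, 4 of the 7 had a read in the male library and 6 in the female library, and 2 reached 3 reads in each. In run 2, all 7 had a read in both libraries, and 6 reached 3 reads in each. The microRNA below the floor there was dps-mir-2555. Its reads were 0 and 2 in the male libraries, against 1 and 2 in the female libraries, so that its level cannot be ordered between the sexes and no fold change is given for it.

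**Figure D2:**
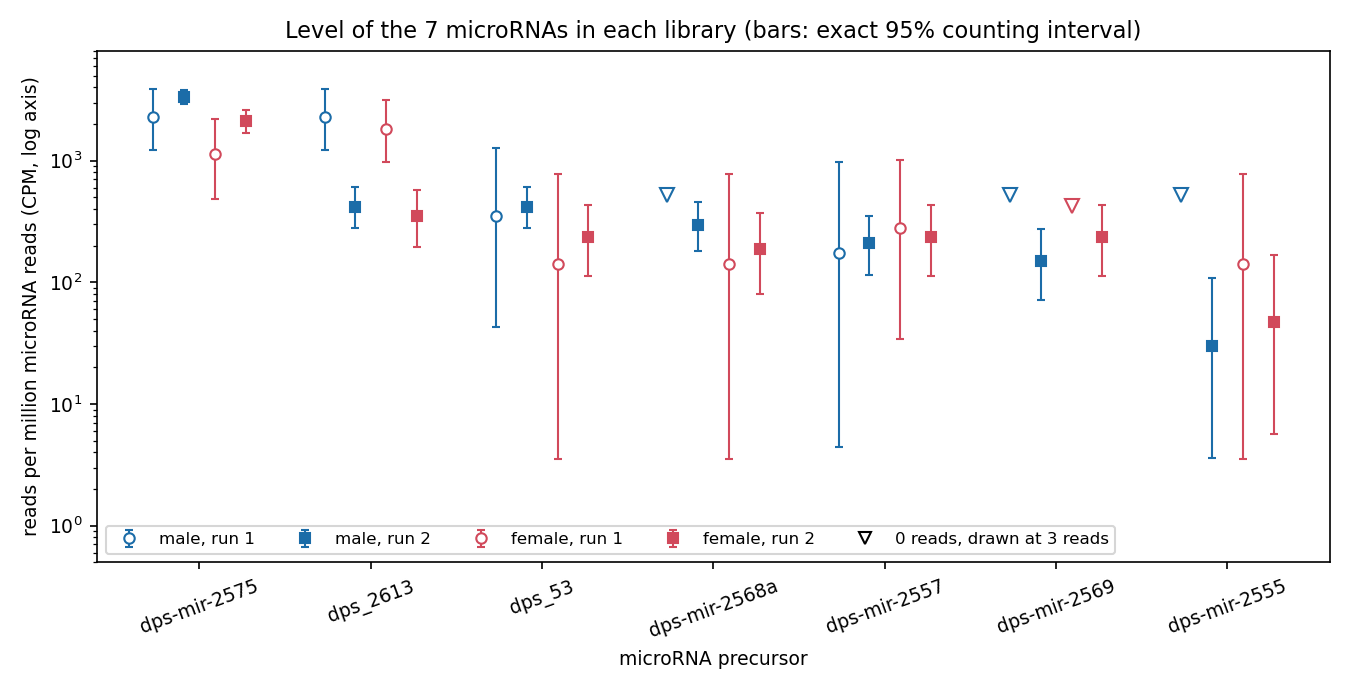
Level of the 7 microRNAs in CPM on a log axis, in the 2 male (blue) and 2 female (red) libraries, with exact 95% counting intervals. Open circles are run 1, filled squares run 2, and triangles mark libraries with 0 reads, drawn at the level of 3 reads. In run 2, dps-mir-2575 lies above the intervals of the other 6 in both sexes.

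In run 2 the highest of the 7 was dps-mir-2575. It had 13 and 225 reads in males, or 2282 CPM (1216 to 3899) and 3354 CPM (2931 to 3822). In females it had 8 and 90 reads, or 1125 CPM (486 to 2216) and 2105 CPM (1693 to 2587). Both male libraries were above both female libraries, an order that 22.6% of the microRNAs tested below showed. The interval of the male library of run 1 overlapped those of both female libraries. In run 2 it took 68.8% of the reads of the 7 in the male library and 62.1% in the female library, and its level there was separated from that of every other member by more than the counting intervals.

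The reads of dps_2613 were 13 and 28 in male libraries, against 13 and 15 in female libraries. These reads gave 2282 CPM (1216 to 3899) and 417 CPM (277 to 603) in males, and 1828 CPM (974 to 3124) and 351 CPM (196 to 579) in females. The sexes overlapped, and the runs did not. In run 1 it equaled dps-mir-2575 in the male library and was above it in the female library, with overlapping intervals. With 2 and 28 reads in males, dps_53 had 351 CPM (42.5 to 1268) and 417 CPM (277 to 603). In females its 1 and 10 reads gave 141 CPM (3.56 to 783) and 234 CPM (112 to 430.1). For dps_53 both male libraries were above both female libraries in CPM, but in run 1 both were below the floor of 3 reads.

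The pair of LOC6902426 was seen almost only in run 2. For dps-mir-2568a there were 0 and 20 male reads, against 1 and 8 female reads, and the run 2 levels were 298 CPM (182 to 460.5) in the male library and 187 CPM (80.8 to 369) in the female library. For dps-mir-2569 there were 0 and 10 male reads, against 0 and 10 female reads, which gave 149 CPM (71.5 to 274) and 234 CPM (112 to 430.1) in run 2. Although the pair shares a gene, the higher of the sexes in run 2 was not the same for both, and the intervals of the sexes overlapped for each. At the level of run 2, the smaller libraries of run 1 would have held 0.849 reads of dps-mir-2569 in the male and 1.66 in the female, so that 0 reads there is within what the depth allows. The microRNA of Mgat2, dps-mir-2557, had 1 and 14 male reads, against 2 and 10 female reads. Its run 2 levels were 209 CPM (114 to 350.2) and 234 CPM (112 to 430.1). Among dps_2613, dps_53, dps-mir-2568a, dps-mir-2557 and dps-mir-2569 the run 2 levels were ordered from 417 to 149 CPM in the male library and from 351 to 187 CPM in the female library. Neighbors in this order had overlapping intervals, so that their order is not settled at this depth, although in the male library dps_2613 and dps_53 lay above the interval of dps-mir-2569.

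Sex and run were fitted together for the 84 microRNAs whose base mean reached 1. The test was the quasi-likelihood test of edgeR, with libraries scaled by a trimmed mean of their ratios (TMM). Fold changes are male over female, and a microRNA was called at a false discovery rate (FDR) under 10% and a difference of at least 25%. None of the 7 was called as sex-biased by edgeR, where 11 of the 84, or 13.1%, were, with 5.95% higher and 7.14% lower in males. At an unadjusted p-value under 0.05 there were 2 of the 7, dps_53 and dps-mir-2575, both higher in males, beside 25% of all tested and 17.9% in that direction. Limma-voom had 0 calls among the 7 and 1 at an unadjusted p-value under 0.05, where it called 7.14% of all tested and had 27.4% below that p-value. DESeq2 had 0 calls and 0 below that p-value, where it called 20.2% of all tested and had 25% below it.

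The log2 fold change of dps_53 was 1.15 (standard error 0.39, adjusted p = 0.167) and that of dps-mir-2575 was 0.98 (standard error 0.35, adjusted p = 0.167), where edgeR's p-values were adjusted by Benjamini-Hochberg over the 84. In the runs taken alone, scaled by library totals, dps-mir-2575 was 2.03 times as high in the male library as in the female library in run 1 (95% interval 0.779 to 5.65) and 1.59 times in run 2 (1.24 to 2.06). Without the female library of run 1, in a fit without the run, the log2 fold change was 0.54 for dps_53 and 0.23 for dps-mir-2575. The run 2 ratio of dps_53 was 1.78 (0.841 to 4.12), and with 2 male reads and 1 female read no ratio was given for run 1. These were the only members with both male libraries above both female libraries, a pattern that 22.6% of the 84 showed. The opposite order, with both female libraries above both male libraries, was found in CPM for dps-mir-2555 and dps-mir-2557 and for 16.7% of the 84. It cannot be read as an order for either, since dps-mir-2555 had at most 2 reads in every library and dps-mir-2557 at most 2 in those of run 1. The male-higher order of dps_53 has the same limit, with 2 male reads and 1 female read in run 1.

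The remaining fold changes were smaller than 2 standard errors. The value of dps-mir-2568a was 0.77 on the log2 scale, with a standard error of 0.66 and an adjusted p of 0.564 in edgeR's test, and its run 2 ratio was 1.59 (0.672 to 4.18). For dps_2613 it was 0.43 (standard error 0.28, adjusted p = 0.446 in edgeR's test), and its ratios in the runs were 1.248 (0.533 to 2.92) and 1.19 (0.614 to 2.40). The value of dps-mir-2557 was 0.027 (standard error 0.49) and that of dps-mir-2569 was -0.32 (standard error 0.73), with run 2 ratios of 0.892 (0.369 to 2.25) and 0.637 (0.238 to 1.71). These intervals include ratios from well below 1 to well above it, so that a moderate bias toward either sex was not detectable at this depth.

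**Figure D3:**
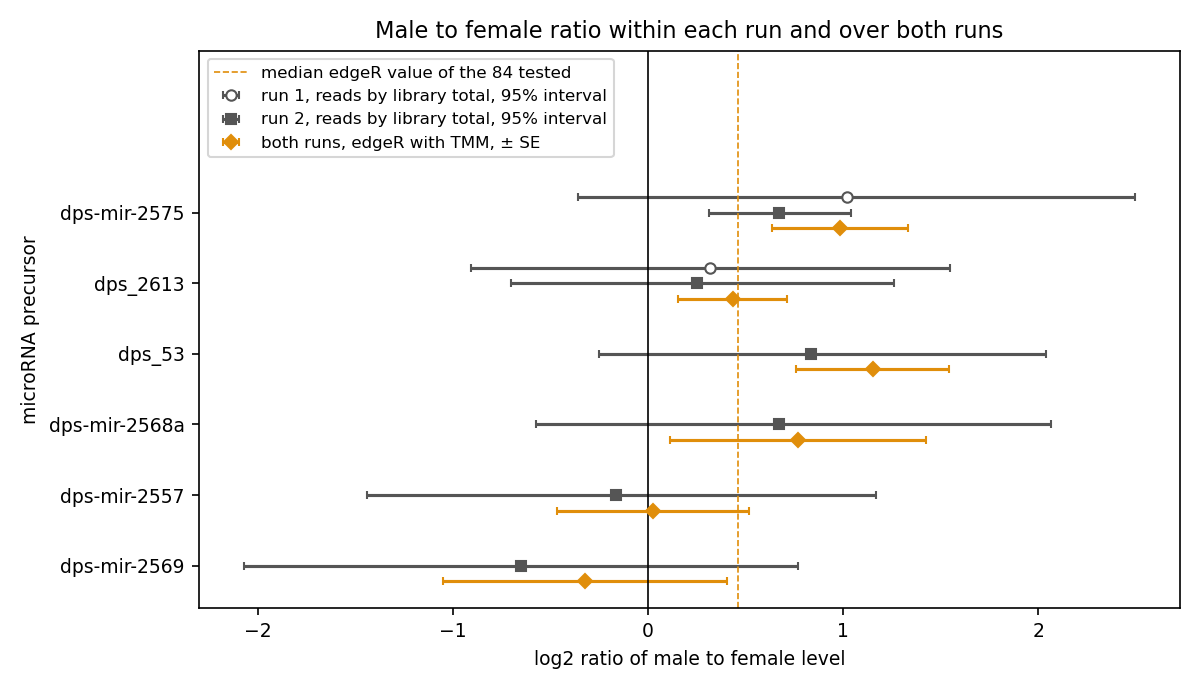
Log2 ratio of male to female level for the 6 microRNAs with more than 3 reads in a library of each sex. Circles are run 1 and squares run 2, scaled by library totals with exact 95% counting intervals, and diamonds are edgeR's values over both runs ± 1 standard error. The dashed line is the median of edgeR's TMM values for the 84 tested microRNAs, 0.46, and applies to the diamonds only. With total counts only, that median was 0.28. Of the counting intervals, only that of dps-mir-2575 in run 2 lies wholly above 0.

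The scaling shifted the fold changes together. The median log2 fold change of the 84 was 0.46 with TMM, 0.28 with total counts only, 0.087 with DESeq2's size factors and 0.014 with TMM factors computed from the 55 microRNAs that pass edgeR's filterByExpr, the last chosen after seeing the data. With total counts only, 9 of the 84 were called higher and 7 lower in males, beside 5 higher and 6 lower with TMM. Relative to the median of the 84 under TMM, 3 of the 6 were higher, dps_53 by 0.69, dps-mir-2575 by 0.52 and dps-mir-2568a by 0.31. The others were at -0.030 for dps_2613, whose sign relative to the median changed with the scaling, -0.44 for dps-mir-2557 and -0.79 for dps-mir-2569. Under the 4 scalings dps-mir-2575 stayed between 0.51 and 0.52 above the median, and dps_53 between 0.60 and 0.69. The fold change of dps-mir-2557, 0.027 under TMM, was negative under the other 3 scalings, while relative to the median it stayed between -0.50 and -0.44. The median over all 7 was 0.43, or 0.60 without dps-mir-2555, beside the 0.46 of all tested.

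**Figure D4:**
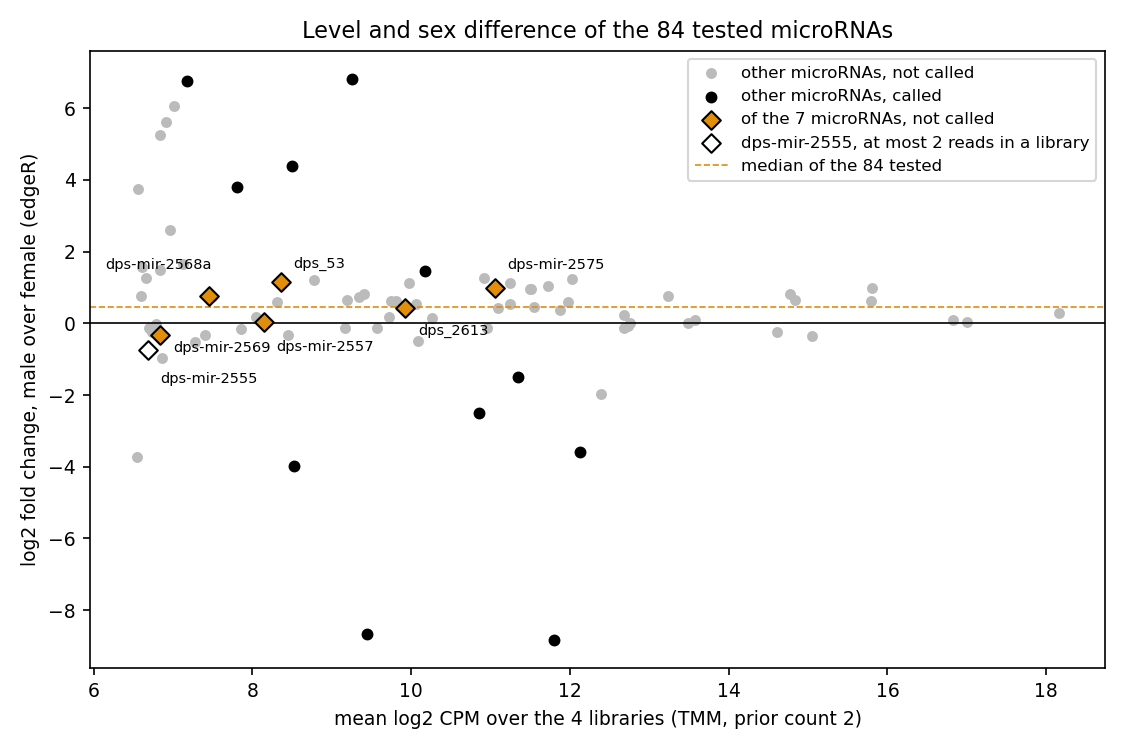
Log2 fold change, male over female, against mean log2 CPM over the 4 libraries for the 84 tested microRNAs. Black points are the called microRNAs, and diamonds are the 7 microRNAs, with dps-mir-2555 open because its fold change rests on at most 2 reads in a library. Values of microRNAs with 0 reads in a sex depend on the prior count. Of the 6 filled diamonds, 3 lie above and 3 below the dashed median of 0.46.

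The precursors without an ortholog that lie outside protein-coding genes gave a different count. Of these 40, 17 had a read, 8 were tested and 3 were called, all 3 higher in males. Their sums were 43 and 378 male reads, against 0 and 21 female reads. In run 1 the male sum was 17.9 times the level of 3 reads in the female library. That value leaves out the counting error of the male reads and is not a lower bound. In run 2 the male sum was 11.5 times as high as the female sum (7.40 to 18.8), beside the 1.39 and 1.44 times of the 7. A few loci carry the sums of the 40, 1 precursor with 288 reads over the 4 libraries, and no test compared them with the 7. The sets were not matched for chromosome or clusters. Nor were they matched for detection, since all of the 7 reached a base mean of 1 and only 8 of the 40 did. The paper reports that X-linked microRNAs specific to *D. pseudoobscura* tend to be higher in testis, and proposes that they tend to arise in clusters. Whether a place inside a gene matters was not tested. Within coding spans, the 77 precursors without an ortholog other than the 7 had 55 and 350 male reads, against 80 and 171 female reads, most of them from dps_7, with 54 and 315 male reads, against 78 and 156 female reads. Of the 31 tested microRNAs with an ortholog in coding spans, 0 were called higher in males and 2 higher in females, with a median log2 fold change of 0.45. Outside coding spans, 35 with an ortholog were tested, and 1 was called higher in males and 4 higher in females, with a median of 0.28. Over all 84 tested, 5.95% were called higher in males and 7.14% higher in females.

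The sequencing runs differed more than the sexes for dps_2613. Its CPM in run 1 was 5.47 times that in run 2 in males (95% interval 2.60 to 10.9) and 5.21 times in females (2.28 to 11.7). At the level of run 2, the libraries of run 1 would have held 2.38 reads in the male and 2.49 in the female, against 13 counted in each. Among the 34 tested microRNAs with more than 3 reads in both run 1 libraries and a read in both run 2 libraries, dps_2613 had the largest such ratio in both sexes, and the medians were 0.829 in males and 0.631 in females. This set required more than 3 reads in run 1, which dps_2613 would not have had at its run 2 level. Its rank and its distance from the medians therefore follow in part from the selection. The microRNA dps_2613 was also singled out after its values were seen. For dps-mir-2575 the ratio of run 1 to run 2 was 0.680 in males (0.357 to 1.19) and 0.534 in females (0.224 to 1.10). The other 5 had at most 2 reads in a run 1 library, and no ratio was given. The run is a term of the model, so that the fold change of dps_2613 compares the sexes within runs, while without the run its standard error was 1.30 (log2 fold change 0.32, adjusted p = 0.990 in edgeR's test).

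**Figure D5:**
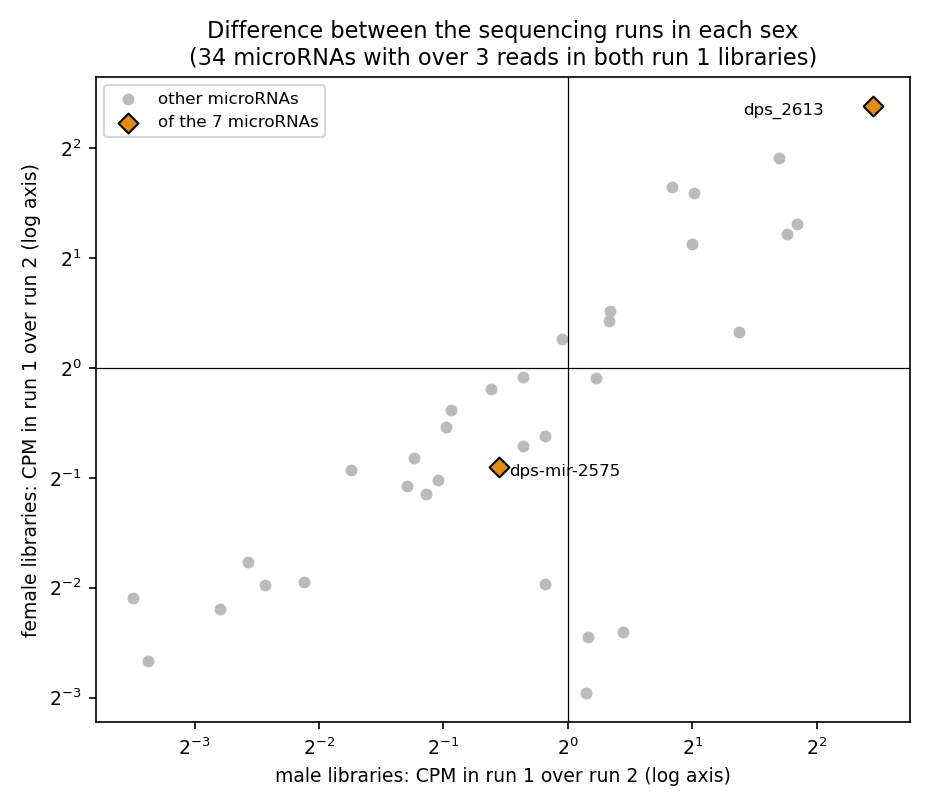
CPM in run 1 over CPM in run 2, in male libraries on the horizontal axis and female libraries on the vertical axis, both log axes, for 34 microRNAs. Diamonds are the 2 of the 7 microRNAs with enough reads. The point of dps_2613 is at 5.47 in males and 5.21 in females, and that of dps-mir-2575 at 0.680 and 0.534.

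The microRNAs closest in level were sought for the 4 members with a read in every library, by the distance of log2 CPM over the 4 libraries, which share their depth and composition. For dps-mir-2575 the nearest were dps-mir-375, with 8 and 315 male reads, against 7 and 80 female reads (distance 0.87), and dps-let-7, a microRNA of developmental timing, with 19 and 287 male reads, against 12 and 118 female reads (distance 0.93). For dps_53 they were dps-mir-124, a microRNA of the nervous system, with 3 and 16 male reads, against 1 and 10 female reads (distance 0.85), and dps-mir-2a-2 (distance 1.04). The microRNA dps-mir-2a-2, of a family of near-identical copies, was also the nearest to dps-mir-2557 (distance 0.85), followed by dps-mir-2b-2 (distance 1.27). For dps_2613 the nearest, dps-mir-981 and dps-mir-190, were at 2.32 and 2.33, farther than for the other 3. All of these neighbors have an ortholog in *D. melanogaster*, and none was called as sex-biased. They were chosen on the same 4 libraries, so that a sex ratio like that of the member follows from the choice. Both traits were common: of the 84 tested, 13.1% were called, and 31 within and 35 outside coding spans have an ortholog.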

How the data were processed

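The authors deposited a table of raw read counts per microRNA precursor for each of the 4 libraries, without normalization. They trimmed adapters with Cutadapt, mapped with HISAT2 and counted with featureCounts, after removing precursors identical in several regions. The strand setting is not given in the sources used here. Library constructs of 145 to 160 bp were selected. Each table ends in a blank line, which was left out.

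The 84 of 231 microRNAs whose base mean reached 1 were tested in R 4.3.3 with edgeR 4.0.16 (glmQLFit and glmQLFTest after TMM), with run and sex in the model as in the paper. Standard errors are the absolute log2 fold change over the square root of F, and are approximate. Ratios within a run used library totals and exact conditional 95% intervals. A fold was given only where each sex had a library over 3 reads. Log2 CPM used a prior count of 2. The paper states that each run held 1 male and 1 female sample, and that the replicate number marks the run was inferred. Across the 84, the differences between runs in males and in females had a Pearson r of 0.567. Alternatives covered the block, the test (limma 3.58.1, DESeq2 1.42.0), the scaling, the filter and leaving out each library. The edgeR fit was tested on simulated data.

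The members and lists were chosen with earlier results of these data known. Other microRNAs were named if they share a number, gene or 10 kb with a member, are among the 2 nearest in level, or served as checks of the libraries.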

Additional observations from a re-analysis of the deposited data

How the results depend on the processing

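None of the 7 microRNAs was called under any of the 13 alternatives, whose lowest adjusted p for a member was 0.160, for dps_53 with TMM factors from all 231 microRNAs, a setting chosen after seeing the data. Of 66 alternative fold changes, 57 kept their direction and 9 reversed. For dps-mir-2557 the log2 fold change was -0.37 with DESeq2's size factors, -0.43 with DESeq2, -0.47 with TMM factors from the microRNAs of the expression filter, -0.23 with total counts and -0.12 with no replicate block, and it was -0.49 to -0.43 when a library of run 1 was left out. Its value relative to the median of all tested stayed negative under the 4 scalings compared. For dps_2613 it ran from -1.48 to 1.59 when a library was left out, with -1.48 without the male library of run 1 and -0.69 without the female library of run 2. These fits leave out the run as well, because 3 libraries with the run in the model leave no residual degrees of freedom, and a lone library is assumed to vary like the others. The median of the members moved to 0.084 with DESeq2's size factors, 0.085 with DESeq2 and 0.016 with TMM factors from the expression filter, and was 0.052 to 1.05 when a library was left out. These are over the members with enough reads, 6 without a run 1 library and 2 (dps-mir-2575 and dps_2613) without a run 2 library. Over all 7 fitted values the range was -0.42 to 0.42. Of all 84, 11 were called, 9 with no replicate block, 17 with DESeq2, 6 with limma-voom and 2 to 6 when a library was left out. Total counts called 9 higher in males and 7 in females, beside 5 and 6. No value was given in 13 cases of too few reads or of no test, including every fold change of dps-mir-2555. The expression filter tested only dps-mir-2575 and dps_2613. The cause of these changes was not tested. The microRNAs nearest in level were found again with a prior count of 0.5. Depth limits run 1 most, where 3 reads correspond to 527 CPM in the male and 422 CPM in the female library.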
